A study of Mus musculus with 12 samples.

Results

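The treatment effect that was shared by nonobese and obese mice is described here. It was measured by setting all 6 tumors of mice given anti–PD-1 against all 6 tumors of mice given isotype control antibodies, with diet as an additive factor, so that the 12 tumors of the series all took part. RNA had been sequenced from subcutaneous tumors of B16-F10, a pigmented melanoma line from the C57BL/6 mouse, grown in male C57BL/6J mice. The 4 groups held 3 tumors each: nonobese isotype and nonobese anti–PD-1 (control diet), and obese isotype and obese anti–PD-1 (Western diet). The mice had been on their diet for 15 weeks, both antibodies were given at 10 mg/kg once tumors could be felt, and tumors were collected on day 16. The anti–PD-1 clone was 29F.1A12 and the isotype control was 2A3. The host mice had no engineered allele, and the 12 tumors grew from 1 cell line. Levels are given as CPM, read counts of a gene scaled to library size and TMM factor, and fold changes are on the log2 scale with their standard error (SE).

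PD-1 is an inhibitory receptor that T cells display after activation. When its ligand PD-L1, encoded by Cd274, engages it on a tumor or myeloid cell, signaling from the T cell receptor is dampened. An antibody that blocks PD-1 can restore killing and interferon-γ production by T cells, and interferon-γ in turn induces antigen presentation genes and Cd274 itself. B16-F10 tumors are poorly infiltrated by T cells.

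The label of the tumors was checked on lineage genes. The 17 melanocyte pigmentation genes (Tyr, Tyrp1, Dct, Pmel and others) summed to 27900 to 34400 CPM in every tumor. Between 14022929 and 33871843 reads were counted on genes per tumor, and TMM factors lay between 0.951 and 1.09. Of 23420 genes in the count table, 13095 were tested. The median correlation of a tumor with the others was lowest for nonobese anti–PD-1 tumor 3 (0.972) and reached at most 0.981. Each group is made of separate mice, so P values rest on the spread between mice. For the shared effect, that spread also takes in any difference in response between the diets.

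No gene reached an FDR below 0.05 for the shared effect (0% of the genes tested), and the lowest FDR was 0.9999 by edgeR's quasi-likelihood F-test with diet as a covariate. DESeq2 also called 0 genes. At an unadjusted P below 0.05, 55 genes were higher with anti–PD-1 (0.42%) and 62 were lower (0.473%), 117 in all, where an even spread of P values over the genes tested would give 655. Genes with a P below 0.01 numbered 8, against 131 for an even spread. The spread around the additive model, a common dispersion of 0.0444, was wider than around a model with a mean for each of the 4 groups, 0.0352. The additive model counts a difference in response between the diets as spread. Its low counts therefore do not reflect the spread between mice alone. A further check used an exact test of single genes, two-sided, with the treatment labels permuted within each diet (400 arrangements, smallest possible P = 0.005). By it 14 genes reached the smallest P, against 65.5 for an even spread, and the lowest FDR over all genes was 1. Its permuted values also take in a difference in response between the diets. With a smallest P of 0.005 over 13095 genes, an FDR below 0.05 would need far more genes at that P. The FDR of this test therefore decides nothing. The P values of single genes given below are from this exact test and are unadjusted. Most of these genes were picked for a small P in edgeR on the same tumors, so the exact P is no independent evidence. Counts of genes at a P threshold are those of edgeR. In the model of 4 group means the average of both responses gave 188 genes at P below 0.05 and 0 at an FDR below 0.05. The count of 117 rose to 431 without nonobese anti–PD-1 tumor 3, to 226 without obese isotype tumor 2 and to 200 without nonobese anti–PD-1 tumor 1, while the count at an FDR below 0.05 was 0 without any tumor.

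**Figure D1:**
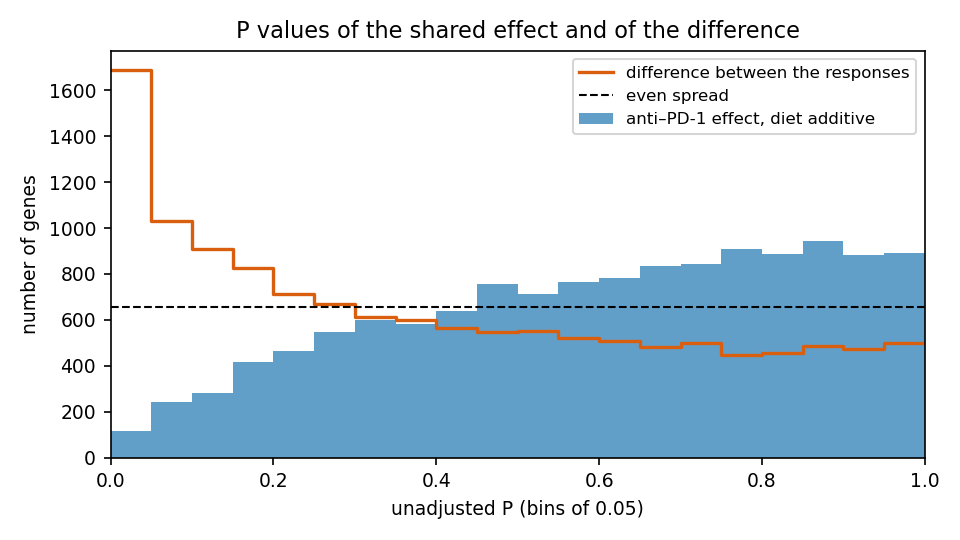
Number of genes (y axis) by unadjusted P in bins of 0.05 (x axis) for the anti–PD-1 effect with diet additive (bars) and for the difference between the diets in response (line), with the even spread of 13095 genes dashed. The lowest bin holds 117 genes for the shared effect and 1687 for the difference.

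The precision allowed modest shared effects to be bounded for most genes. The 95% interval of the shared log2 fold change stayed within 2-fold in either direction for 11526 genes (88%) and within 1.5-fold for 9868 genes (75.4%). The median absolute log2 fold change was 0.065 for the shared effect, 0.126 in nonobese mice and 0.138 in obese mice.

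The 2 diets mostly moved in opposite directions. Of the genes tested, 4174 (31.9%) had the same sign in both diets, 2259 of them higher and 1915 lower with anti–PD-1, and 8921 (68.1%) had opposite signs. Across genes, which are not independent of each other, the log2 fold changes of the 2 diets had a Pearson correlation of -0.523 and a Spearman correlation of -0.488; the 2 comparisons share no tumor. Within a diet, 685 genes had an unadjusted P below 0.05 in nonobese mice (5.23%) and 991 in obese mice (7.57%). Only 190 genes were in both, and of these 0 were higher in both diets (0%), 2 were lower in both (0.0153%), 153 were lower in nonobese and higher in obese mice (1.17%), and 35 were the reverse (0.267%). The 2 genes lower in both were Actg2 and Ptgs2. The difference between the responses had an unadjusted P below 0.05 for 1687 genes (12.9%), with a lowest FDR of 0.0596 and 0 genes below 0.05 in edgeR. DESeq2 called 283 genes for this difference, and edgeR called 197 without obese anti–PD-1 tumor 1, 111 without nonobese isotype tumor 1 and 37 without nonobese anti–PD-1 tumor 3. The 188 genes past P with opposite signs became 69 to 339 when 1 tumor was left out. Leaving out nonobese anti–PD-1 tumor 3 raised the genes past P in both diets to 3 higher and 12 lower, and leaving out nonobese isotype tumor 3 or obese isotype tumor 1 left 0 lower.

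**Figure D2:**
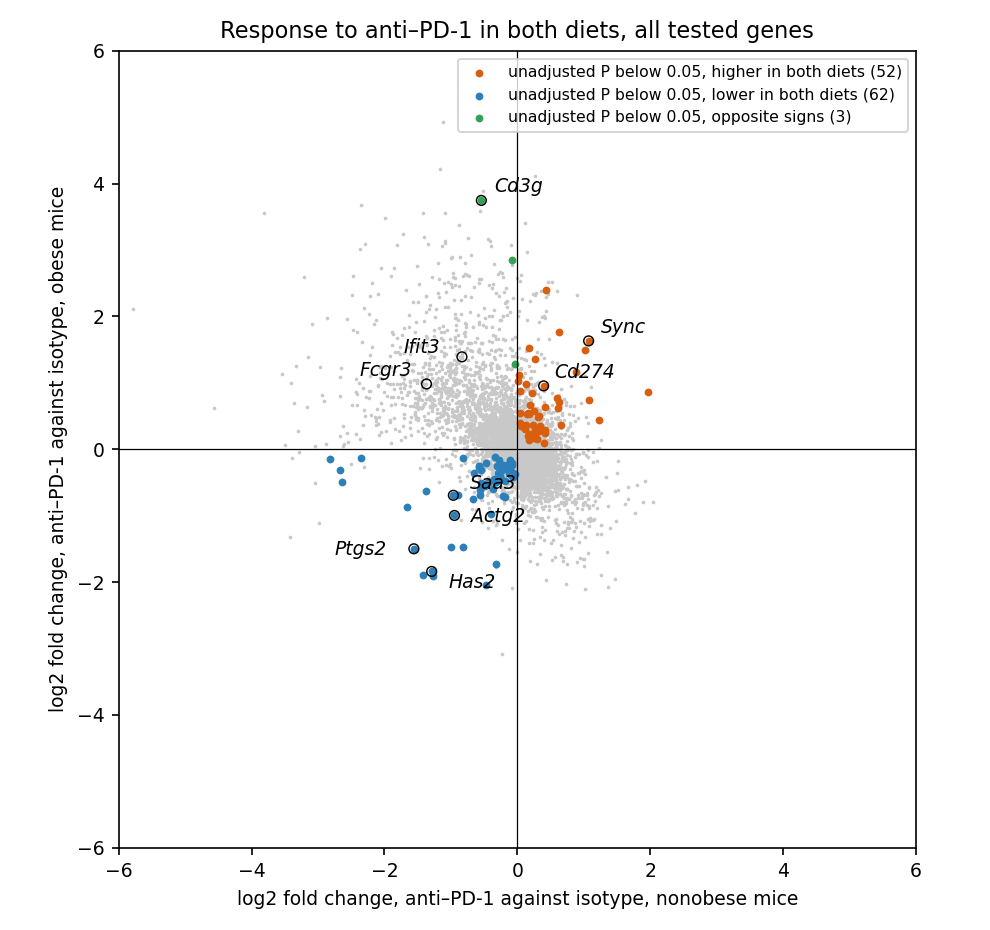
Log2 fold change of anti–PD-1 against isotype in nonobese mice (x axis) and obese mice (y axis), 1 point per tested gene. Genes with an unadjusted P below 0.05 for the shared effect are colored: 52 higher in both diets, 62 lower in both and 3 with opposite signs, while most other points lie to the upper left and lower right.

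The 10 genes with the smallest P values among those lower with anti–PD-1 included Actg2, Dstn and Myl9. Actin-γ2 (Actg2) is the enteric smooth muscle actin, destrin (Dstn) severs and disassembles actin filaments, and Myl9 is the regulatory light chain of myosin in smooth muscle and other contractile cells. The shared log2 fold change was -0.97 ± 0.25 (SE) for Actg2 (exact P = 0.005, the smallest possible), -0.27 ± 0.08 for Dstn (exact P = 0.005) and -0.51 ± 0.16 for Myl9 (exact P = 0.03). Their FDR in edgeR was 0.9999, as for every gene described below.

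Actg2 (chr6:83512909-83536251 in GRCm38.p6) was at 16.8, 11.3 and 20.1 CPM in the 3 nonobese isotype tumors and at 4.73, 8.85 and 11.3 CPM in the nonobese anti–PD-1 tumors. In obese mice it was at 23, 14.7 and 24.6 CPM with isotype and at 5.08, 12.6 and 13.4 CPM with anti–PD-1. Every treated tumor was below every isotype tumor of its own diet, by less than the rounding in nonobese mice, and the groups overlapped once the diets were put together. The log2 fold change was of like size in both diets, -0.95 ± 0.36 in nonobese and -0.996 ± 0.36 in obese mice, and the difference between the 2 had an FDR of 0.981. Reads of Actg2 and its near-identical paralog Acta2 may not be separable, and Acta2, the vascular smooth muscle actin, was at 66.0 to 72.2 CPM in nonobese isotype, 25.9 to 56.4 in nonobese anti–PD-1, 22.2 to 51.9 in obese isotype and 21.7 to 69.8 CPM in obese anti–PD-1 tumors and had a shared log2 fold change of -0.15 ± 0.31 (exact P = 0.575).

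Dstn (chr2:143915331-143943324) is an abundant gene and its replicates were close. Its level was 175, 156 and 195 CPM in nonobese isotype tumors and 154, 154 and 139 CPM in nonobese anti–PD-1 tumors. The obese tumors had 210, 199 and 210 CPM with isotype and 151, 161 and 187 CPM with anti–PD-1. The treated tumors were lower than all isotype tumors within each diet, and the log2 fold change was -0.24 ± 0.11 in nonobese mice and -0.31 ± 0.11 in obese mice.

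Myl9 (chr2:156775408-156781657) was at 61.7, 55.3 and 90.1 CPM in nonobese isotype tumors and at 44.8, 59.7 and 43.4 CPM with anti–PD-1. Levels in obese tumors were 98.7, 76.7 and 77.3 CPM with isotype and 39.6, 56.2 and 79.0 CPM with anti–PD-1. A single treated tumor in each diet overlapped the isotype tumors. Its log2 fold change was -0.48 ± 0.24 in nonobese and -0.53 ± 0.24 in obese mice.

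The wider smooth muscle set was mixed. A list of 14 smooth muscle contraction genes, put together after the values of Actg2 and Myl9 were seen, had 0 genes higher and 3 lower at an unadjusted P below 0.05 (Actg2, Myl9 and the myosin light chain kinase Mylk; Dstn is not on the list), against 0.42% and 0.473% of all genes. Its median log2 fold change was -0.10 for the shared effect, -0.39 in nonobese and 0.20 in obese mice, 8 of the 14 were lower in nonobese and higher in obese mice (30.4% of all genes), and 5 were lower in both diets (14.6% of all genes). Transgelin (Tagln), for example, had -0.73 ± 0.33 in nonobese and 0.55 ± 0.33 in obese mice, with an FDR of 0.279 for the difference. Mylk had a shared log2 fold change of -0.22 ± 0.10 (exact P = 0.075), at -0.07 in nonobese and -0.37 in obese mice. The 17 endothelium and pericyte markers, a source of contractile cells, summed to 963 to 1010 CPM in nonobese isotype, 802 to 837 in nonobese anti–PD-1, 595 to 903 in obese isotype and 678 to 913 CPM in obese anti–PD-1 tumors, and their part in these values was not tested. In bulk tumor RNA, fewer cells of a type and less RNA per cell cannot be told apart.

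Promoter sequences are shown for the 2 members of this group with an entry in the RefSeq promoter table (GRCm38.p6, plus strand, the 250 bases before the transcript start of that table), because Myl9 is a contractile gene with a known type of control site. Of the 20 genes with the smallest shared P values, 10 in each direction, 16 had an entry, with 20 promoters in all. The transcript start of Dstn is the gene start given above, and that of Myl9 lies 56 bases inside the gene span. Capitals mark the CArG box, the site that serum response factor binds in contractile genes, searched on both strands.
Myl9, chr2:156775214-156775463: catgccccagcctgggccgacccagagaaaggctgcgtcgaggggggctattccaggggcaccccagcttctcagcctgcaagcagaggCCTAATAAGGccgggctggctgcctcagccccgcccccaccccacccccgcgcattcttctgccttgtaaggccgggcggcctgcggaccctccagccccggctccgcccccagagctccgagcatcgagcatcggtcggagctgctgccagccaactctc
Dstn, chr2:143915081-143915330: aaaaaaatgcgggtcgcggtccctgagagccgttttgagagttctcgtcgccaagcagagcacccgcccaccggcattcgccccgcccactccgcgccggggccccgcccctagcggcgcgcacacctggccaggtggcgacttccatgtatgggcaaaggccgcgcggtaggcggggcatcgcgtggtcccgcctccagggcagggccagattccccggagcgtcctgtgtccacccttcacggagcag
The Myl9 window holds a CArG box starting 161 bases before this transcript start, and the Dstn window has no match. Among the 16 genes Myl9 was the only one with a match. Of all promoters of the same length, 482 of 32851 (1.47%) hold one. It stands in a promoter of 138 of 9753 tested genes (1.41%). A match is a description of the letters and not a measured binding site.

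Ptgs2 and Has2 had lower values with anti–PD-1 in both diets. Ptgs2 encodes cyclooxygenase-2, the inducible enzyme that starts prostaglandin synthesis, and Has2 encodes a hyaluronan synthase of the matrix. Ptgs2 (chr1:150100031-150108234) was at 0.61, 1.06 and 1.25 CPM in nonobese isotype tumors and at 0.457, 0.186 and 0.357 CPM in nonobese anti–PD-1 tumors. Among obese mice it was at 3.07, 0.56 and 1.48 CPM with isotype and at 0.705, 0.639 and 0.502 CPM with anti–PD-1. The nonobese groups did not overlap, while in obese mice isotype tumor 2 lay among the treated tumors. Over both diets the log2 fold change was -1.52 ± 0.40 (exact P = 0.015), with -1.56 ± 0.59 in nonobese and -1.50 ± 0.57 in obese mice. These levels rest on 6 to 73 reads per tumor, and without obese isotype tumor 1, the highest, the value was -1.18.

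The promoter of Ptgs2 is given as the second gene past P in both diets, and that of Cd274 as the PD-1 ligand described further on. Both were also searched for the GAS element, TTCNNNGAA, bound by STAT factors, on both strands. The table's transcript start is the gene start for Ptgs2, whereas for Cd274 it lies 5331 bases inside the gene span, so the bases before the gene start of Cd274 were not searched.
Ptgs2, chr1:150099781-150100030: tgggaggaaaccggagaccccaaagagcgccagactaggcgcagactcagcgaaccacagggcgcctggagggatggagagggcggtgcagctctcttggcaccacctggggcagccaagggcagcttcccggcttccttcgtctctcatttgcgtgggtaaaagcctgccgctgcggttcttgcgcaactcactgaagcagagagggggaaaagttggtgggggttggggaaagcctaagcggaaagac
Cd274, chr19:29367188-29367437: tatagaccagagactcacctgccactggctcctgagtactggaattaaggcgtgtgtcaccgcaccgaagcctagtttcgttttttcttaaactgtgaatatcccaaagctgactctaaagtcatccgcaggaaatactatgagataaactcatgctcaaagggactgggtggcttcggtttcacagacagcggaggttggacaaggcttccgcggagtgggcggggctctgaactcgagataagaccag
Neither window holds a CArG box or a GAS element, so they carry no capitals. A GAS element stands in 6 of the 20 promoters, which belong to 5 of the 16 genes, Sync, Tmem184a, Rasgrp1, Hap1 and Itpka, all from the genes that were higher. It stands in 2306 of all 32851 promoters (7.02%) and in a promoter of 706 of 9753 tested genes (7.24%).

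Has2 (chr15:56665627-56694546) was at 0.45, 0.47 and 0.568 CPM in nonobese isotype tumors and at 0.0508, 0.216 and 0.312 CPM with anti–PD-1. For obese mice the values were 0.673, 0.0699 and 0.525 CPM with isotype and 0, 0.148 and 0.182 CPM with anti–PD-1. The nonobese groups were apart, and obese isotype tumor 2 was as low as the treated tumors. With at most 16 reads in a tumor, the log2 fold change was -1.53 ± 0.56 (exact P = 0.04). Prostaglandin E synthase (Ptges), which acts after Ptgs2, had -1.97 ± 0.49 in nonobese and 0.28 ± 0.48 in obese mice, with an FDR of 0.194 for the difference. In a list of 12 tested prostaglandin and hyaluronan genes, added after these values were seen, Ptgs2 and Has2 were the 2 lower at P below 0.05 and 0 were higher, against 0.473% and 0.42% of all genes; the list was built around these 2 genes.

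Saa3, an acute phase protein made by stromal cells and macrophages in inflamed tissue, was at 1.28, 4.17 and 5.06 CPM in nonobese isotype tumors and at 1.93, 1.64 and 1.78 CPM with anti–PD-1. Obese mice had levels of 4.16, 5.04 and 5.49 CPM with isotype and 3.24, 2.56 and 3.28 CPM with anti–PD-1. The obese groups did not overlap, and in nonobese mice isotype tumor 1 was the lowest of the 6. Its shared log2 fold change was -0.83 ± 0.27 (exact P = 0.04). Saa3 was the 1 gene lower at P below 0.05 among the 6 tested neutrophil and acute phase genes, of which 0 were higher, against 0.473% and 0.42% of all genes. Of the 6, 2 were lower in both diets and 3 were lower in nonobese and higher in obese mice, against 14.6% and 30.4% of all genes. That list summed to 7.9 to 21.6 CPM in nonobese isotype, 5.44 to 7.76 in nonobese anti–PD-1, 9.93 to 13.1 in obese isotype and 13.6 to 22.4 CPM in obese anti–PD-1 tumors.

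**Figure D3:**
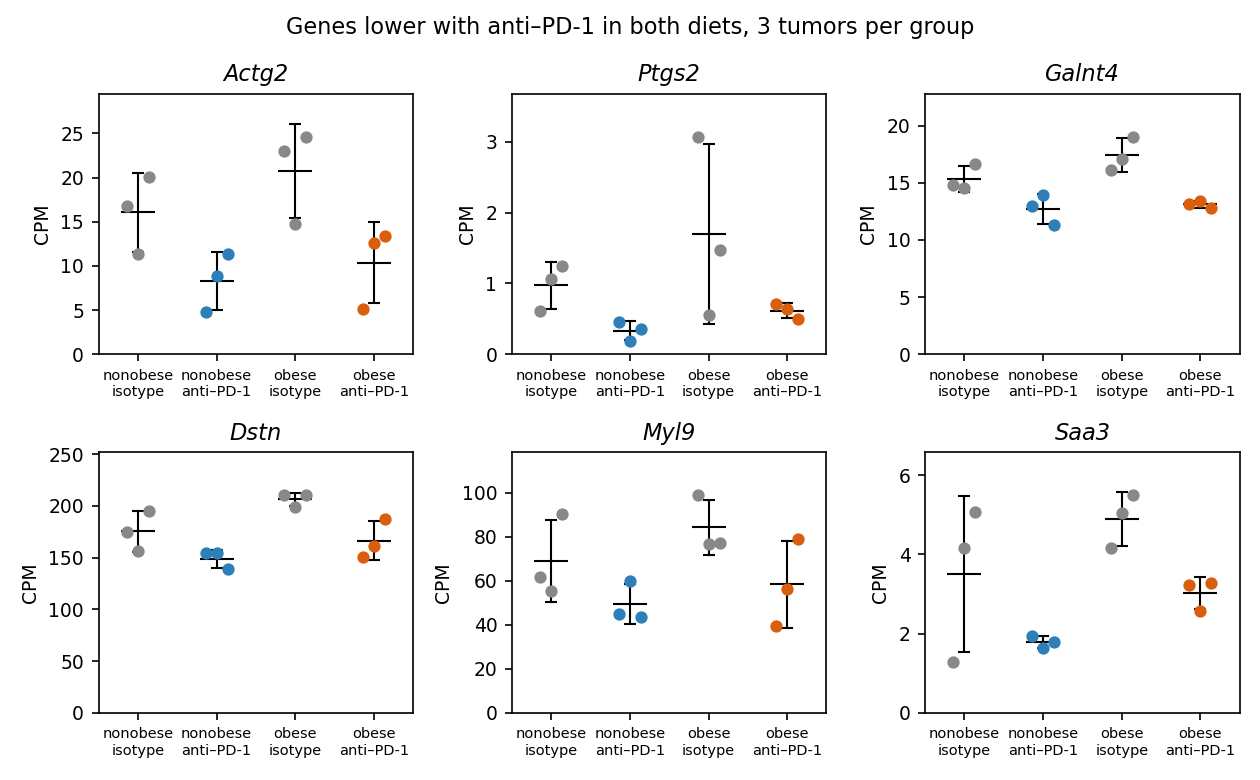
CPM (y axis, from 0) of 6 genes lower with anti–PD-1 in both diets, by group (x axis). Points are tumors, the bar is the mean and the whiskers are the SD over 3 tumors. In Actg2, Galnt4 and Dstn every treated tumor is below the isotype tumors of its diet; a single isotype tumor is low in Ptgs2 (obese) and Saa3 (nonobese), and Myl9 overlaps in each diet.

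A pair of enzymes had small differences and close replicates. Galnt4 (chr10:99108135-99113247), which starts O-glycosylation of mucin-type proteins, was at 14.8, 14.5 and 16.6 CPM in nonobese isotype tumors and at 13, 13.9 and 11.3 CPM with anti–PD-1. In obese mice it was at 16.1, 17.1 and 19 CPM with isotype and at 13.1, 13.4 and 12.8 CPM with anti–PD-1. All 6 treated tumors were below all 6 isotype tumors, also with RLE size factors or no scaling factors. The difference was -0.33 ± 0.09 on the log2 scale (exact P = 0.005). Galnt4 overlaps Poc1b in the RefSeq annotation, and Poc1b had a shared log2 fold change of 0.0013 (exact P = 0.92).

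Inpp5b (chr4:124741827-124801511), a phosphatase of inositol lipids, ranged from 70.5 to 81.4 CPM in the 6 isotype tumors with a median of 76.3, and from 61.0 to 69.5 CPM with a median of 66.5 with anti–PD-1. These ranges do not meet under TMM scaling but do under the size factors of DESeq2 (RLE), and the log2 fold change was -0.20 ± 0.06 (exact P = 0.005). The remaining genes of the 10 lowest P values were Zfp365, a zinc finger protein (-0.33 ± 0.11), Adam23, a catalytically inactive member of the ADAM family (-0.46 ± 0.16), both with an exact P = 0.005, and Sec11c, a catalytic subunit of the signal peptidase complex (-0.22 ± 0.08, exact P = 0.015). Sec11c was uneven between the diets, with -0.06 ± 0.10 in nonobese and -0.39 ± 0.10 in obese mice and an FDR of 0.339 for the difference.

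The 10 genes with the smallest P values among those higher with anti–PD-1 included Pim1, Ralgds, Spry4 and Rasgrp1. Pim1 is a serine/threonine kinase induced by cytokines through STAT factors, Ralgds activates Ral GTPases downstream of Ras, Spry4 is a feedback inhibitor of the ERK pathway, and Rasgrp1 activates Ras in lymphocytes. The shared log2 fold change was 0.43 ± 0.15 for Pim1 (exact P = 0.02), 0.18 ± 0.07 for Ralgds (exact P = 0.005), 0.52 ± 0.19 for Spry4 (exact P = 0.045) and 1.15 ± 0.44 for Rasgrp1 (exact P = 0.07).

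Pim1 (chr17:29490785-29496111) was at 6.07, 7.91 and 5.51 CPM in nonobese isotype tumors and at 7.83, 7.52 and 7 CPM with anti–PD-1. The obese tumors had 5.55, 6.50 and 7.26 CPM with isotype and 12.3, 9.74 and 8.85 CPM with anti–PD-1. The groups overlapped in nonobese mice and were apart in obese mice, where the log2 fold change was 0.67 ± 0.20 against 0.19 ± 0.19 in nonobese mice. The difference between the diets had an FDR of 0.49.

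Ralgds (chr2:28513089-28553082) was at 73.8, 66.0 and 65.1 CPM in nonobese isotype tumors and at 77.5, 75.7 and 75.6 CPM with anti–PD-1. Levels in obese tumors were 63.4, 62.2 and 57.6 CPM with isotype and 76.4, 69.7 and 65.2 CPM with anti–PD-1. Treated tumors were above the isotype tumors within each diet, and the log2 fold change was 0.16 ± 0.10 in nonobese and 0.20 ± 0.10 in obese mice.

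Spry4 was at 16.3, 15.5 and 13.8 CPM in nonobese isotype tumors and at 14.9, 24.7 and 21.0 CPM with anti–PD-1. Among obese mice it was at 10.5, 13.1 and 16.4 CPM with isotype and at 30.9, 17.8 and 13.9 CPM with anti–PD-1. A single treated tumor in each diet lay within the isotype values. In a list of 12 ERK feedback genes, added after this gene was seen, Spry4 was the 1 gene higher at P below 0.05 and 0 were lower, against 0.42% and 0.473% of all genes. In that list 7 of 12 had a higher value in both diets, as did 2259 of all 13095 genes, with a median log2 fold change of 0.14 for the shared effect. Spry1 (0.18, exact P = 0.16) and Dusp6 (0.15, exact P = 0.405), inhibitors of the same pathway, had P values above 0.05.

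Rasgrp1 was low, at 0.191 to 0.454 CPM with a median of 0.288 in the isotype tumors and at 0.212 to 1.08 CPM with a median of 0.66 in the anti–PD-1 tumors. Obese anti–PD-1 tumors 2 and 3 and nonobese anti–PD-1 tumor 3 were the highest, and the 3 other treated tumors lay within the isotype range. Its log2 fold change was 0.99 without nonobese anti–PD-1 tumor 3, 0.95 without obese anti–PD-1 tumor 2 and 1.05 without obese isotype tumor 3, and in each of these fits it was no longer past the unadjusted threshold of edgeR.

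Cd274 (chr19:29362107-29388095), the gene of PD-L1, was among the 10 genes with the smallest edgeR P in this direction, but its exact P was above 0.05. It was at 6.68, 9.52 and 7.21 CPM in nonobese isotype tumors and at 4.73, 8.44 and 17.7 CPM with anti–PD-1. For obese mice the values were 9.63, 8.60 and 8.36 CPM with isotype and 14.1, 21.6 and 15.8 CPM with anti–PD-1. All 3 treated obese tumors were above the isotype tumors, whereas in nonobese mice only anti–PD-1 tumor 3 was above and tumor 1 was the lowest of the 6. The shared log2 fold change was 0.68 ± 0.26 (95% interval 0.12 to 1.23, exact P = 0.1), with 0.40 ± 0.35 in nonobese and 0.95 ± 0.35 in obese mice, and the difference between the diets had an FDR of 0.657. It was no longer past the unadjusted threshold of edgeR without nonobese anti–PD-1 tumor 3, where the shared value was 0.44, or without obese anti–PD-1 tumor 2, where it was 0.56. Cd274 overlaps Plgrkt and Gm36043 in the RefSeq annotation, and Plgrkt had a shared log2 fold change of -0.07 ± 0.08. The 42 interferon response genes summed to 720 CPM in that tumor, against 412 and 461 CPM in the other nonobese anti–PD-1 tumors, 653 to 827 in nonobese isotype, 607 to 724 in obese isotype and 837 to 2480 CPM in obese anti–PD-1 tumors, and their part in the Cd274 values was not tested.

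Other genes among the 10 smallest P values in this direction were more varied. Gstt1, a glutathione transferase, had 0.82 ± 0.31 (exact P = 0.03), with 0.27 in nonobese mice and 1.36 in obese mice, where treated tumors were at 1.62, 1.48 and 1.41 CPM against 0.715, 0.49 and 0.525 CPM. Hap1, which binds huntingtin in vesicle transport, had 0.21 ± 0.08 (exact P = 0.025), and Itpka, a kinase of inositol trisphosphate that also bundles actin, had 0.68 ± 0.26 (exact P = 0.015). Gstt1 was no longer past the unadjusted threshold of edgeR without obese isotype tumor 2 (0.71) or 3 (0.72), nor Itpka without obese isotype tumor 1 (0.59). Tmem184a, a membrane protein, had 0.67 ± 0.24 (exact P = 0.01). Sync, the muscle intermediate filament protein syncoilin, had 1.34 ± 0.48 (exact P = 0.015) on 1 to 17 reads per tumor, and it overlaps Rbbp4 in the annotation. The 24 skeletal muscle genes summed to 114 to 641 CPM in nonobese isotype, 109 to 661 in nonobese anti–PD-1, 89.3 to 271 in obese isotype and 146 to 1010 CPM in obese anti–PD-1 tumors, with no gene of the list at 0 in every tumor, and their part in the Sync values was not tested.

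**Figure D4:**
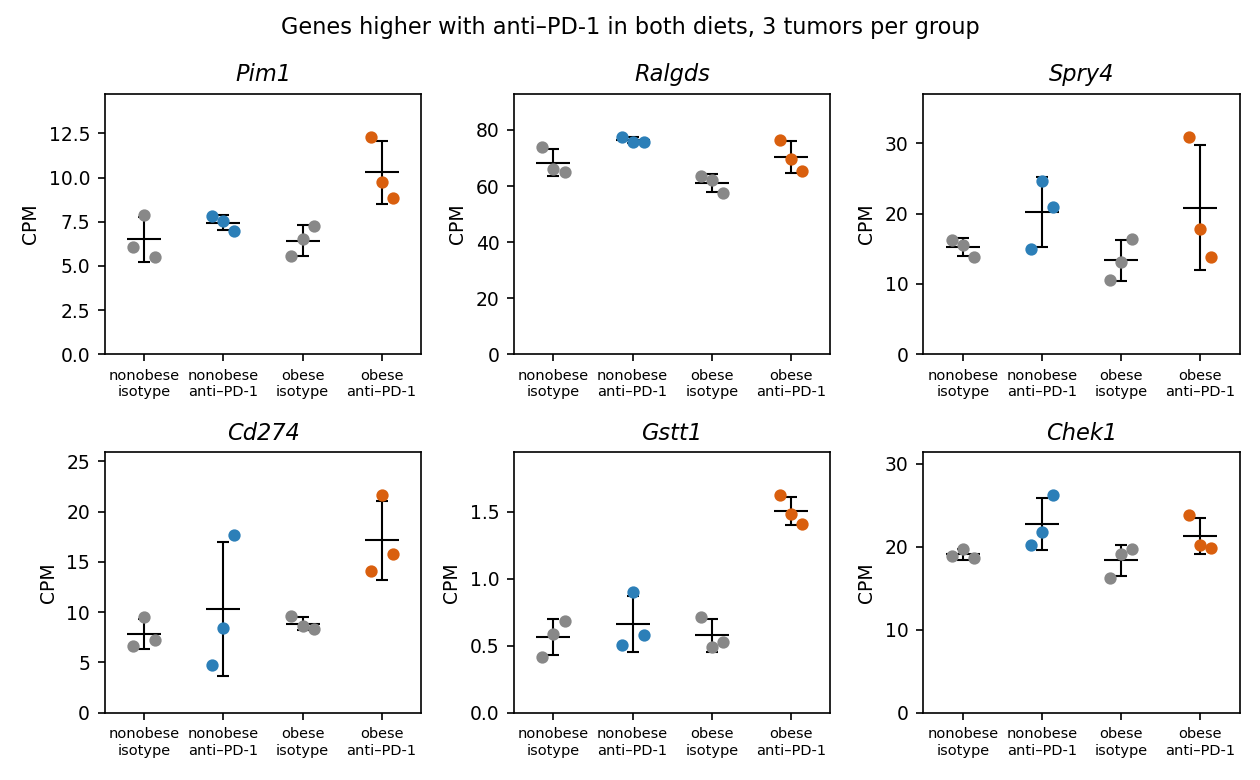
CPM (y axis, from 0) of 6 genes higher with anti–PD-1 in both diets, by group (x axis). Points are tumors, the bar is the mean and the whiskers are the SD over 3 tumors. Ralgds and Chek1 are separated within each diet, Pim1, Cd274 and Gstt1 only in obese mice, and Spry4 in neither.

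Genes past a 2-fold change were few and mostly of low level. At the study's thresholds, which ask for more than a 2-fold change and an unadjusted P under 0.05, 8 genes were higher (0.0611%) and 13 lower (0.0993%). The higher genes were Car7, Sync, Slc4a1, Col6a4, Rasgrp1, Apobec2, Cd3e and Cd3g. The 2 T cell receptor subunits Cd3e and Cd3g had opposite signs in the diets: Cd3g had -0.54 in nonobese and 3.75 in obese mice, and its 6 isotype and 3 nonobese treated tumors did not exceed 0.239 CPM. Carbonic anhydrase Car7 had 1.42 ± 0.60 (exact P = 0.05), the collagen chain Col6a4 1.24 ± 0.51 (exact P = 0.025) and the erythroid anion exchanger Slc4a1 1.27 ± 0.54 (exact P = 0.05). The erythrocyte genes measured summed to 5.57 to 12 CPM in nonobese isotype, 3.21 to 19 in nonobese anti–PD-1, 3.10 to 5.76 in obese isotype and 6.89 to 12.3 CPM in obese anti–PD-1 tumors, with Hba-a1 and Hba-a2 at 0, and their part in the Slc4a1 values was not tested. Apobec2, a muscle member of the cytidine deaminase family, had 1.01 ± 0.43 (exact P = 0.05). Of the 12 fits that left out a tumor, Car7 and Apobec2 stayed past the unadjusted threshold of edgeR in 7, Col6a4 in 6, and Slc4a1 and Cd3g in 4. Leaving out nonobese anti–PD-1 tumor 1 raised the higher genes to 44, nonobese isotype tumor 2 to 37, nonobese anti–PD-1 tumor 2 to 24, obese anti–PD-1 tumor 1 to 20 and nonobese isotype tumor 3 to 16.

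The 13 lower genes were Serpinb2, Trim29, Has2, Ptgs2, 2200002D01Rik, Spon2, Il1rl1, Padi4, Fcna, Krt83, Atp10b, Myo7b and Pcolce2. They stayed past the unadjusted threshold in 2 (Atp10b) to 12 (Has2 and Ptgs2) of the 12 fits that left out a tumor. The value of some rested on 1 tumor. Serpinb2, the plasminogen activator inhibitor-2, was at 6.35 CPM in obese isotype tumor 1 and at most 1.43 CPM elsewhere, and its log2 fold change of -1.63 ± 0.74 (exact P = 0.12) became -0.79 without that tumor. Trim29, an epithelial gene, was at 2.65 CPM in nonobese isotype tumor 2 and at most 0.699 CPM elsewhere, and its -1.59 ± 0.61 (exact P = 0.08) became -0.73 without it. The 18 keratinocyte and hair follicle markers summed to 45.7 CPM in that tumor and to 13.4 to 37.6 CPM in the others, with Krt1, Krt10 and Krt77 at 0, and their part in the Trim29 and Krt83 values was not tested. Padi4, which citrullinates histones in neutrophils, had -1.26 ± 0.48 (exact P = 0.07), at -1.66 in nonobese and -0.87 in obese mice. In 3 genes of this set the value came from the nonobese mice, with an unadjusted P below 0.05 but an FDR of 0.195 or more for the difference between the diets: 2200002D01Rik (-2.82 ± 0.57 in nonobese and -0.15 ± 0.56 in obese mice), Fcna, a macrophage lectin (-2.35 ± 0.58 and -0.13 ± 0.55), and Spon2, a matrix protein (-2.67 ± 0.79 and -0.32 ± 0.74). The count of 13 became 38 without nonobese anti–PD-1 tumor 3, 32 without obese isotype tumor 2, 27 without obese anti–PD-1 tumor 3, 24 without nonobese isotype tumor 1 or obese anti–PD-1 tumor 2, 8 without obese anti–PD-1 tumor 1 or obese isotype tumor 1, and 7 without nonobese isotype tumor 2.

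Another view of the same values asked which genes kept the treated and isotype tumors apart, whatever the size of the change. All 6 treated tumors were above all 6 isotype tumors for 3 genes (0.0229%), Chek1, Mrps27 and Wdr25, and below them for 3 genes (0.0229%), Galnt4, Inpp5b and Mapkapk3. The set depends on the library scaling: with RLE size factors 5 of the 6 kept the tumors apart, all but Inpp5b, and without scaling factors only Galnt4 did. Chek1, the checkpoint kinase of the DNA damage response, ranged from 16.2 to 19.8 CPM with a median of 19.1 in isotype tumors and from 19.9 to 26.2 CPM with a median of 21.0 in treated tumors, a log2 fold change of 0.23 ± 0.09. Mrps27, a protein of the mitochondrial ribosome, ranged from 49.0 to 58.1 CPM and from 58.2 to 62.9 CPM (0.16 ± 0.06). Wdr25 overlaps Wars and Gm18405 in the RefSeq annotation, and Mrps27 and Inpp5b also overlap other entries there. Mapkapk3, a kinase downstream of p38, ranged from 46.3 to 52.1 CPM and from 42.6 to 45.5 CPM (-0.14 ± 0.06). The log2 fold changes of the 6 genes lay between -0.33 and 0.23. With separation asked only within each diet, 7 genes were higher in both (0.0535%) and 7 were lower in both (0.0535%), whereas 94 were lower in nonobese and higher in obese mice (0.718%) and 93 the reverse (0.71%). The genes separated in the same direction in both diets are the 14 with the smallest exact P. Such separation gives that P by construction, so neither adds support to the other.

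Cd274, described above, had a positive log2 fold change in both diets, with an exact P above 0.05. In nonobese mice only anti–PD-1 tumor 3 lay above the isotype tumors. Pdcd1 and the T cell genes named below gave no shared change that held in both diets. Pdcd1, which encodes PD-1, was at 0.0964, 0.294 and 0.284 CPM in nonobese isotype tumors and at 0.102, 0.0309 and 0.401 CPM with anti–PD-1. Obese mice had levels of 0, 0.28 and 0.573 CPM with isotype and 1.55, 2.71 and 0.502 CPM with anti–PD-1. Over both diets it had 1.25 ± 0.82 (95% interval -0.51 to 3.0, exact P = 0.23), which rests on 0 to 55 reads per tumor and was 0.76 without obese anti–PD-1 tumor 2. PD-L2 (Pdcd1lg2), interferon-γ (Ifng), Ido1 and aromatase (Cyp19a1) were too low to be tested, and Ifng was at most 0.59 CPM, in obese anti–PD-1 tumor 2.

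The T cell genes had shared values of 1.65 ± 0.98 for Cd3d (exact P = 0.125), 1.45 ± 0.66 for Cd3e (exact P = 0.165), 1.01 ± 0.85 for Cd8a (exact P = 0.365) and -0.17 ± 0.44 for Cd4 (exact P = 0.565). The cytotoxic proteins had 1.12 ± 0.89 for Gzmb (exact P = 0.335) and 1.46 ± 1.07 for Prf1 (exact P = 0.305). In all 6 the nonobese value was below 0 and the obese value above 0. Cd8a, for instance, was at 0.257, 0.823 and 0.341 CPM in nonobese isotype tumors and at 0.0508, 0.155 and 0.357 CPM with anti–PD-1, and in obese mice at 0.168, 0.35 and 0.382 CPM against 0.635, 4.23 and 2.69 CPM. Leaving out 1 tumor at a time moved the shared value to between 1.06 and 2.12 for Cd3d, 0.51 and 1.64 for Cd8a, 0.64 and 1.66 for Gzmb, 0.78 and 2.14 for Prf1, and 0.22 and 1.16 for Cxcl9. With the current form of glmQLFit, Cd3d (2.02), Cd8a (1.49), Prf1 (1.77) and Pdcd1 (1.59) were past the unadjusted threshold of edgeR. So were Cd3d (2.22), Cd8a (1.76) and Prf1 (2.12) with no diet term, and Cd3d (1.90), Prf1 (1.53) and H2-DMb1 (0.43) for the average of both responses. H2-DMb1 also passed without nonobese anti–PD-1 tumor 1 (0.57) or 2 (0.58) or nonobese isotype tumor 2 (0.55), and Cd3d without nonobese anti–PD-1 tumor 1 (2.12). Cd3e passed the unadjusted threshold of edgeR in 3 of the 12 fits that left out a tumor. The chemokine Cxcl9 had 0.68 ± 0.74 (exact P = 0.865), at -1.07 in nonobese and 2.36 in obese mice. H2-DMb1, a chaperone of MHC class II loading, had 0.43 ± 0.24 (exact P = 0.165), at -0.24 in nonobese and 1.10 in obese mice. The estrogen receptor gene Esr1 had 0.30 ± 0.20 (exact P = 0.105), at 0.07 ± 0.27 in nonobese and 0.53 ± 0.28 in obese mice.

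Among 35 gene lists of pathways and cell types, with 522 tested genes, 4 had medians of the same sign in both diets, 24 were lower in nonobese and higher in obese mice, and 7 were the reverse. Over all tested genes the medians were 0.0037 for the shared effect, 0.024 in nonobese and -0.012 in obese mice. The counts of list members below are to be read against 0.42% of all genes higher and 0.473% lower at an unadjusted P below 0.05.

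Of 21 tested glycolysis and hypoxia genes, 13 had higher values in both diets, against 17.3% of all genes, 0 were lower in both, against 14.6%, and 8 were lower in nonobese and higher in obese mice, against 30.4%, and 0 passed P below 0.05 in either direction. The median was 0.16 for the shared effect, 0.04 in nonobese and 0.29 in obese mice, and the shared median was 0.064 without nonobese anti–PD-1 tumor 1 and 0.25 without nonobese anti–PD-1 tumor 3. Bnip3, a mitophagy receptor induced by low oxygen, had 0.34 ± 0.20 (exact P = 0.205), with 0.26 in nonobese and 0.42 in obese mice, and the lactate transporter Slc16a3 had 0.27 ± 0.21. The pyruvate dehydrogenase kinase Pdk1 had 0.22 ± 0.15 (exact P = 0.21) and lactate dehydrogenase Ldha 0.19 ± 0.15 (exact P = 0.385). Nonobese anti–PD-1 tumor 3 was the lowest of the 12 for Ldha at 2640 CPM, and nonobese anti–PD-1 tumor 1 the highest at 5430 CPM.

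The melanocyte pigmentation list had medians of 0.04 in both diets and 0.03 for the shared effect, with 0 of 17 genes past P in either direction. Tyrp1, an enzyme of melanin synthesis, had 0.03 ± 0.10 (exact P = 0.68) and Pmel, the fibril protein of melanosomes, 0.03 ± 0.11 (exact P = 0.83). Cell cycle genes were flat too, with a median of -0.01 over 30 genes and 0 past P. The erythrocyte list had 2 tested genes, both higher in each diet, and immediate early genes had medians of -0.04 and -0.03 with 1 of 20 higher at P. The amino acid stress list had 2 of 20 genes lower at P, asparagine synthetase Asns (-0.24 ± 0.11) and the serine synthesis enzyme Psat1 (-0.21 ± 0.09), while 14 of the 20 were higher in nonobese and lower in obese mice, against 37.7% of all genes, with medians of 0.09 and -0.38.

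Immune and stromal lists had opposite signs in the 2 diets. Of all genes tested, 30.4% were lower in nonobese and higher in obese mice, the background for the counts that follow. All 18 macrophage genes were lower in nonobese and higher in obese mice, with medians of -0.99 and 0.87, a shared median of -0.10 and 0 genes past P for the shared effect. The same held for 17 of 17 adipocyte genes (-0.89 and 1.69, shared 0.39), 8 of 8 MHC class II genes (-1.07 and 1.65, shared 0.36), 15 of 16 complement genes (-1.0 and 0.88, shared -0.05) and 19 of 21 fibroblast and collagen genes (-1.21 and 0.55, shared -0.38), each with 0 past P. With 1 tumor left out at a time the shared medians moved to between -0.28 and 0.085 for macrophages, -0.26 and 0.13 for complement, -0.59 and -0.16 for fibroblasts and collagen, 0.094 and 0.66 for adipocytes, 0.049 and 0.70 for MHC class II, and 0.24 and 0.66 for MHC class I. Of 40 interferon response genes, 36 were lower in nonobese and higher in obese mice and 4 were higher in both, with medians of -0.58 and 1.35. MHC class I presentation had 2 of 15 genes higher at P and a shared median of 0.52, but 12 of the 15 had opposite signs in the order of the other immune lists. Of 12 T and NK cell genes, 11 did so, with medians of -1.18 and 2.97, and the list had 2 genes higher at P, Cd3e and Cd3g. Of 10 tested T cell activation and checkpoint genes, 6 did so and 4 were higher in both diets, against 17.3% of all genes. Their medians were -0.14 and 1.15, and 1 gene, Cd274, was higher at P. The shared median was 0.41, and 0.27 to 0.69 with 1 tumor left out.

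Among genes past P in both diets with opposite signs, the 5 with the smallest P for the difference were Ifit3, Fcgr3, Apol9a, Ifi27l2a and Adipoq. Apol9a had a shared log2 fold change of 0.90 ± 0.81, Adipoq of 0.39 ± 0.99 and Ifi27l2a of -0.14 ± 0.50. With no diet term (1.45) and for the average of both responses (0.90), Apol9a was past the unadjusted threshold of edgeR. Without 1 tumor at a time the shared value lay between 0.37 and 1.45 for Apol9a and between 0.079 and 0.52 for Ifit3, which had 0.72 with no diet term. Ifit3, an interferon-induced antiviral gene, was at 12.5, 18.3 and 15.9 CPM in nonobese isotype tumors and at 7.57, 9.12 and 9.45 CPM with anti–PD-1. In obese mice it was at 16.4, 18.0 and 17.7 CPM with isotype and at 29.1, 61.7 and 45.8 CPM with anti–PD-1. The groups were apart in both diets, in opposite directions, and the shared log2 fold change was 0.30 ± 0.35 (exact P = 0.525) with an FDR of 0.0596 for the difference. Fcgr3, a low-affinity Fcγ receptor of macrophages, was at 14.1, 25.5 and 24.5 CPM with isotype and 7.73, 7.70 and 9.41 CPM with anti–PD-1 in nonobese mice, and at 13.2, 8.46 and 11.6 CPM with isotype and 14.9, 24.9 and 26 CPM with anti–PD-1 in obese mice, for a shared value of -0.19 ± 0.38 (exact P = 0.69).

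**Figure D5:**
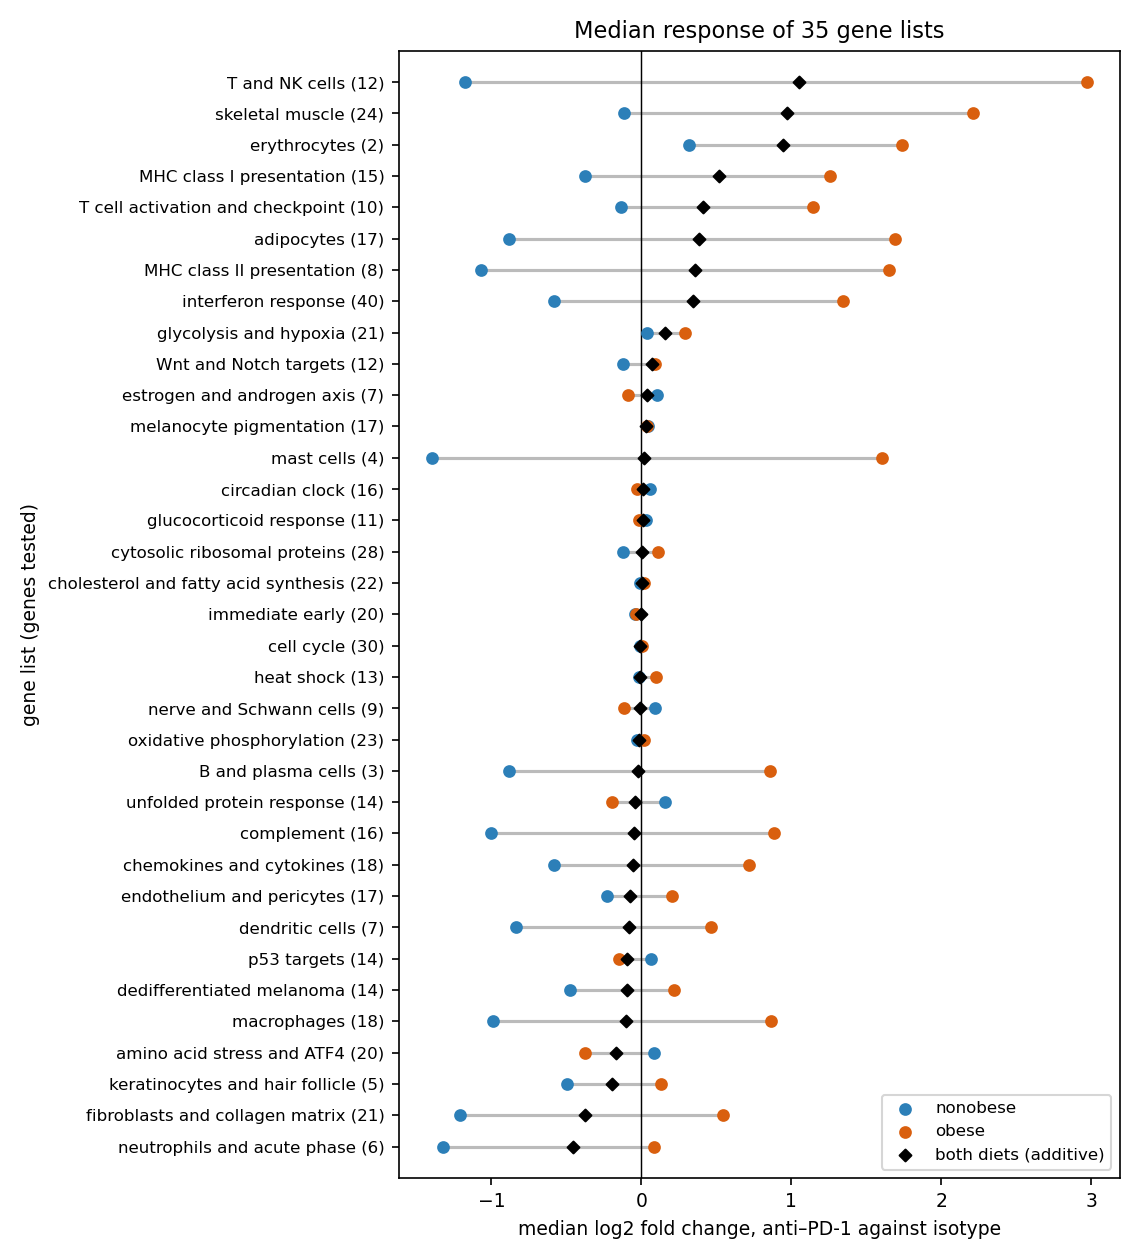
Median log2 fold change of anti–PD-1 against isotype (x axis) for 35 gene lists (y axis, tested genes in parentheses) in nonobese mice, in obese mice and for the shared effect, ordered by the shared effect. Most immune and stromal lists span 0, with nonobese to the left and obese to the right; glycolysis and hypoxia and erythrocytes lie to the right of 0 in both diets.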

How the data were processed

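RNA of 12 tumors was sequenced by the authors from stranded poly(A) libraries as single-end reads of 100 bp. Per the study's methods and its processing notes, read quality was checked with FastQC 0.11.5, reads were aligned to mm10 with STAR 2.7.0f and counted per gene with HTSeq 0.9.1. The authors deposited these raw counts for 23420 genes, as whole numbers without normalization. The strand setting of the counting and the gene annotation are not given in the sources used here, so overlapping genes and near-identical copies are uncertain. Every column of the count table was matched to a tumor by its name, and 0 were left unused.

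Genes were filtered with filterByExpr by the 4 groups, scaled by TMM and fitted in edgeR 4.0.16 (R 4.3.3) with the earlier form of glmQLFit, which matches the version the authors used (3.28.1). The shared effect was tested by the quasi-likelihood F-test in a model with diet and treatment (9 residual degrees of freedom). Effects within each diet and their difference came from a model of 4 group means (8 residual degrees of freedom). The study's thresholds, more than a 2-fold change with an unadjusted P under 0.05, were applied, with Benjamini-Hochberg FDR over all tested genes beside them. Standard errors were derived from the F statistic. Single genes were also tested by exact permutation of the treatment labels within each diet on log2 CPM with a prior count of 2, a test chosen after seeing the data. Total counts of 14022929 to 33871843 per tumor set the precision, and 3 counts, the limit that a count of 0 allows, came to 0.0882 to 0.212 CPM. Reads carried no molecular identifiers, so this limit covers counting error only.

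The genes named were the 10 with the smallest P in each direction with the same sign in both diets, the 5 with the largest change in each direction among those past P, a short set of PD-1 pathway genes, up to 4 genes with the smallest P in each list, and, among genes past P in both diets with opposite signs, the 5 with the smallest P for the difference. Not every list gene so chosen is printed. Genes named for the separation of their groups, and other list members and related genes, were chosen after their values were seen. The comparison, the genes and the lists were chosen with earlier results of these data known. Gene lists are described by counts and medians without a test, and 3 of them were added after values were seen. Coordinates are 1-based from RefSeq GRCm38.p6, in which 21566 of 23420 symbols were found. The code was tested on simulated data. Replicate numbers come from the labels and mark different mice. Alternatives were DESeq2 1.42.0, other scaling, filters, models and priors, a replicate block and leaving out each tumor. A gene of the fixed set is not reported here, and other data of the study were not analysed here.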

Additional observations from a re-analysis of the deposited data

Results flagged for a closer look

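Single tumors stood apart from the other 5 of their treatment in 13 of 120 sets of 6 tumors, over 12 of 60 genes screened by Dixon's test. For values with a normal spread, chance gives about 1 in 20 such sets. CPM values that pool 2 diets, some on few reads, need not have that spread. Many of the genes were also picked on these tumors, so no excess can be read from the 13. Obese isotype tumor 1 was the outlying tumor for Ptgs2 (3.07 CPM), Serpinb2 (6.35 CPM), Chek1 (16.2 CPM) and Mapkapk3 (52.1 CPM). Nonobese isotype tumor 2 was outlying for Trim29 (2.65 CPM), Slc4a1 (0.588 CPM), Cd8a (0.823 CPM) and Prf1 (0.882 CPM). The others were Itpka (1.89 CPM) and Has2 (0.0699 CPM) in obese isotype tumor 2, Saa3 (1.28 CPM) in nonobese isotype tumor 1, Atp10b (0.661 CPM) in nonobese anti–PD-1 tumor 1 and Prf1 (5.9 CPM) in obese anti–PD-1 tumor 2.

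For 19 of the 60 genes screened, against 12.9% of all genes tested, the log2 response of obese minus that of nonobese mice had an unadjusted P below 0.05 in edgeR, while 0 of all genes had an FDR below 0.05. Of these 19, Ifit3, Apol9a, Ifi27l2a, Fcgr3 and Adipoq were screened because of a small P for this same difference, so their values are a description. The difference on the log2 scale was negative for Sec11c (-0.32) and positive for the other 18. Among T cell genes it was 6.05 for Cd3d, 2.93 for Cd3e, 4.29 for Cd3g, 4.43 for Cd8a, 1.93 for Cd4, 4.98 for Gzmb and 5.38 for Prf1. Among interferon-responsive genes it was 3.43 for Cxcl9, 1.92 for Cxcl10, 1.34 for H2-DMb1, 2.23 for Ifit3, 4.61 for Apol9a and 2.99 for Ifi27l2a. It was 2.35 for Fcgr3, 2.22 for Fcna, 2.35 for Spon2, 2.67 for 2200002D01Rik and 5.38 for Adipoq, the adipokine of fat cells.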

How the results depend on the processing

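The count of 0 genes at an FDR below 0.05 for the shared effect held under every alternative run, leaving out each tumor included. For the exact permutation test that count was all but fixed by its smallest possible P. Genes at P below 0.05 (117) numbered 225 with every gene of at least 1 count, 188 for the average of both responses and 165 by the exact permutation test within diets. Genes past the fold change and P, 8 higher and 13 lower, numbered 77 and 67 with every gene of at least 1 count, 0 and 0 when 10 counts were asked of every tumor, 21 and 21 with the current form of glmQLFit and 20 and 20 for the average contrast, and 31 were higher with no diet term. With the replicate number as a block, 21 were lower and 11 genes had an FDR below 0.05 for the difference between the diets. Same-number tumors had a mean correlation of deviations of 0.133 (-0.264 to 0.563, 10 of 18 pairs over 0.1). For tumors of different numbers the mean was -0.0623 (13 of 36 pairs over 0.1). Within a diet, same-number tumors had a mean of 0.272 in nonobese and -0.0527 in obese mice. The numbers mark different mice, and the main models did not pair tumors by number. Genes lower in both diets at P (2) numbered 4 with DESeq2, and 1 gene was higher in both with every gene of at least 1 count. Genes with an FDR below 0.05 for the difference (0) numbered 55 with every gene of at least 1 count, 2 when 10 counts were asked of every tumor, 5 with a robust prior and 283 with DESeq2. Lists with medians of the same sign (4) numbered 8 under either filter, and genes with all 6 treated tumors apart (6) numbered 2 without TMM scaling. Ifi27l2a had 0.10 with no diet term against -0.14.

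Leaving out 1 tumor at a time gave 82 to 431 genes at P below 0.05, 7 to 44 higher and 7 to 38 lower past the fold change, 0 to 3 higher and 0 to 12 lower in both diets, 69 to 339 opposite, 0 to 197 at an FDR below 0.05 for the difference, 5 to 8 lists and 6 to 25 separated genes. Only some of the named genes were followed through the same fits. Among them the shared value of 4 genes changed sign: Adipoq (-0.28 to 1.04), Cd4 (-0.46 to 0.069), Fcgr3 (-0.43 to 0.023) and Ifi27l2a (-0.46 to 0.19). Of 35 list medians for the shared effect, 16 changed sign in at least 1 of these fits. The cause of these shifts was not tested. Genes under about 1 CPM rest on few reads.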
